A study of Homo sapiens with 2 samples.

Results

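A set of 9 genes that encode surface proteins used to mark colon cancer cells was examined in COLO320, an established line of colorectal carcinoma cells known for neuroendocrine traits, after knockdown of CDX2, the homeobox transcription factor of the intestinal lineage. The genes were EPCAM, CD24, TSPAN8, CD44, PROM1, ALCAM, CEACAM1, CEACAM5 and CEACAM6, and 6 of them were among the 12842 genes with a ratio on both arrays. CD24, EPCAM and TSPAN8 were picked partly on their falls with both siRNAs in these same arrays. Their ratios are therefore given as a description and without a test. One group of cells received 100 nM of CDX2 siRNA 6, another received 100 nM of CDX2 siRNA 8, and the control cells received a non-targeting siRNA. All cells were grown in RPMI-1640 with serum and gave RNA 24 h after a change of medium. Each CDX2 siRNA had 1 two-colour Agilent 44K array, with its RNA in Cy5 and time-matched control RNA in Cy3, so a value is a log2 ratio of CDX2 siRNA over control and n = 2 throughout.

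These proteins act at the cell surface in adhesion and signalling. EPCAM joins epithelial cells and can be cut to release a signalling tail, CD24 is a small, heavily glycosylated protein held by a lipid (GPI) anchor, and TSPAN8 is a tetraspanin, a class that groups integrins and other receptors in the membrane. CD44 binds hyaluronan, PROM1 (CD133) sits on membrane protrusions, and ALCAM (CD166) is an adhesion molecule of the immunoglobulin family. CEACAM5 is the carcinoembryonic antigen followed in the blood of colon cancer patients, CEACAM6 is its GPI-anchored neighbour, and CEACAM1 spans the membrane and signals through its tail. Several of them, above all CD44, PROM1, EPCAM, ALCAM and CD24, have been used to sort cells that start colon tumours.

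CDX2, the targeted gene, was reduced to 37.0% (siRNA 6) and 37.7% (siRNA 8) of its control level. The table held ratios and no intensities, so the levels of the markers, and the identity of the cells by their marker levels, could not be read from it. Over all 12842 genes the log2 ratio had a median of -0.13, and 64.9% of genes were below 0. No array had the dyes swapped, and the control's own spread was not measured. The labels do not say whether cultures were prepared independently, so the spread between arrays may be in part technical. Because the arrays carry different siRNAs, each SD and limma p also holds any difference between the siRNAs. In RNA from whole cultures, a fall can reflect fewer cells that express a gene or less RNA in each cell, and these cannot be told apart.

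The 9 genes were covered by 24 array features, of which 16 had a ratio on both arrays, 2 had a ratio on 1 array and 6 were exactly 0 on both. Features at exactly 0 were taken to be unmeasured, which no source states. A feature may thus have entered only through the channel in which its gene was high, and this was not tested. CD44 had 10 usable features and ALCAM had 2, while EPCAM, CD24, TSPAN8 and CEACAM1 each rested on 1. PROM1, with 1 feature, CEACAM5, with 1, and CEACAM6, with 2, were exactly 0 on both arrays throughout. No ratio can be given for these 3 genes. Of the 18334 named genes on the array, 5492 were without a usable feature, while 5002 were at 0 on both arrays. A gene without a usable feature is said below to have no ratio, although it may have a value on 1 array.

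**Figure D1:**
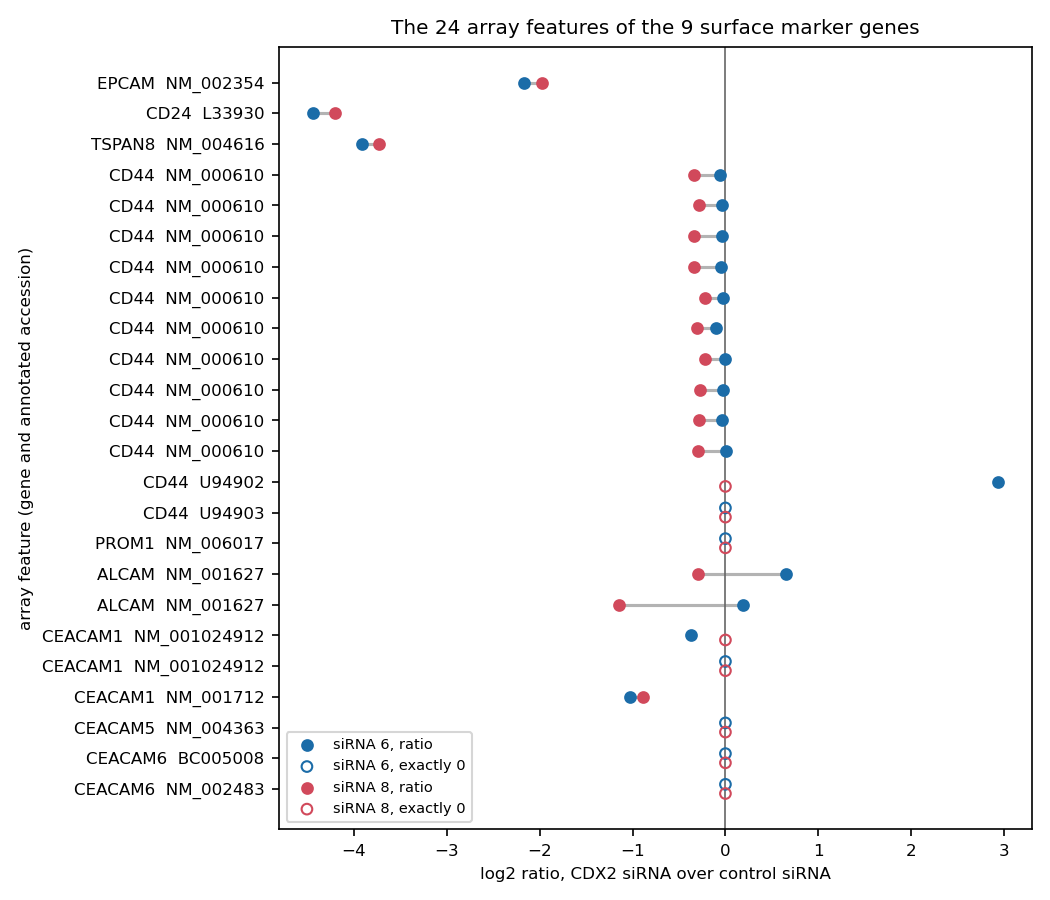
Log2 ratio of CDX2 siRNA over control (horizontal axis) for each of the 24 array features of the 9 genes (vertical axis, gene and annotated accession), with siRNA 6 in blue and siRNA 8 in red; open circles are exact zeros and grey lines join the arrays of a feature. EPCAM, CD24 and TSPAN8 lie at -1.98 or lower on both arrays, the 10 CD44 features of 1 accession lie near 0, and ALCAM changes sign between siRNAs.

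CD24 had the lowest ratio among the measured surface marker genes. Its feature, annotated to accession L33930, gave a log2 ratio of -4.43 with siRNA 6 and -4.21 with siRNA 8. The transcript thus stood at 4.62% and 5.41% of control. Both arrays placed it far below control, with a mean of -4.32 ± 0.160 (SD, n = 2). In the order of all genes it ranked 3 from the bottom. CD24 has near-identical processed pseudogenes in the genome, and the probe sequences were not used here, so a contribution of related transcripts was not tested.

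TSPAN8 came next in the order. It gave log2 ratios of -3.91 with siRNA 6 and -3.73 with siRNA 8, which corresponds to 6.64% and 7.55% of control. The mean was -3.82 ± 0.132 (SD, n = 2), and it ranked 6 from the bottom among 12842 genes. The values of CD24 and TSPAN8 on the arrays did not overlap, with CD24 lower on each.

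EPCAM fell less far than CD24 and TSPAN8. It gave a log2 ratio of -2.17 with siRNA 6 and -1.98 with siRNA 8, or 22.2% and 25.4% of control. The mean was -2.08 ± 0.136 (SD, n = 2), at percentile 1.22 of all genes and rank 158 from the bottom. For each of CD24, TSPAN8 and EPCAM the ratio was slightly lower with siRNA 6, by 0.23, 0.19 and 0.19 on the log2 scale in size. Differences between siRNAs of that size or more were common, since 65.8%, 58.2% and 59.4% of all genes differed by less.

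The sequence before the start of CD24 and of TSPAN8 is shown because these genes had the largest falls and CDX2 binds AT-rich sites. The search used TTTATG and TTTATT, the core of CDX2 sites, on both strands, in the 250 bases before each transcription start listed by RefSeq (GRCh38.p14). At least 1 match was present in 22.5% of the 35116 windows of that table. Of the 9 genes, 8 were in the table and EPCAM was not. Capitals mark the matches, which appear as CATAAA or AATAAA where they lie on the other strand.
CD24, chr6:106975466-106975715, minus strand: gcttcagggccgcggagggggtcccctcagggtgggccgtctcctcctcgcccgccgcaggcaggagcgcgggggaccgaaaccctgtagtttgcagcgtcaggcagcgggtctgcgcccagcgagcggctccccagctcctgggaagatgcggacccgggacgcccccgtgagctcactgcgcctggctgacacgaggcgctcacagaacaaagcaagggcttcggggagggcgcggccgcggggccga
TSPAN8, upstream start, chr12:71158000-71158249, minus strand: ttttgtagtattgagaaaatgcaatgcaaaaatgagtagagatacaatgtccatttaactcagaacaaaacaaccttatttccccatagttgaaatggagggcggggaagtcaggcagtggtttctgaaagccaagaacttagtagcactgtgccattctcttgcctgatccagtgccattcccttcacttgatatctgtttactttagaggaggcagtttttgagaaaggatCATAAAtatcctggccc
TSPAN8, downstream start, chr12:71157810-71158059, minus strand: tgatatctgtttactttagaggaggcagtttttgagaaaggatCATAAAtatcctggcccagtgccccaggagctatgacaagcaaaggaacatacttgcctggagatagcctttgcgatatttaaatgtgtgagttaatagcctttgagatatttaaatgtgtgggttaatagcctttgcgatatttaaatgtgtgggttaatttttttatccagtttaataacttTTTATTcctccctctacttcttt
The CD24 window held no match, nor did the windows of its other starts, and 73.2% of its bases were G or C, against a median of 58 percent over all windows. The TSPAN8 windows were AT-rich, with 40.8% and 36 percent G or C, and overlap by 60 bases. The upstream start had a match from 17 to 12 bases before it. The downstream start had that same match, at 207 to 202 bases before it, and a further match from 23 to 18 bases before it. The matches describe letters in these windows and do not show binding.

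CEACAM1 was lower with both siRNAs, and it was the only gene past the threshold among CD44, ALCAM and CEACAM1, the measured genes that were not picked on a fall. Its feature for accession NM_001712 gave a log2 ratio of -1.03 with siRNA 6 and -0.89 with siRNA 8, or 49.0% and 54.1% of control. The mean was -0.96 ± 0.101 (SD, n = 2; limma, adjusted p = 0.00409, lower on 2 of 2 arrays). The threshold was an adjusted p of 0.05 over all genes, which 40.7% of the 12842 genes passed, 12.1% higher and 28.6% lower. Lower genes made up 70.2% of the calls, and 58.0% with each array centred on its median. CEACAM1 lay at percentile 13.0 of all genes.

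The call for CEACAM1 rested on 1 of its 3 features. Of its 2 features for accession NM_001024912, the first gave -0.37 with siRNA 6 and exactly 0 with siRNA 8, and the other was exactly 0 on both. When exact zeros were kept as ratios of 0, the mean of CEACAM1 was -0.38 and the limma adjusted p was 0.211, against 0.00337 to 0.00667 under its other alternatives with a test. In that setting no gene of 18334 passed in limma (0 calls; 5218 had an unadjusted p under 0.05), and CDX2 itself had an adjusted p of 0.0676.

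CEACAM5 and CEACAM6 had no ratio, although they lie in the same gene cluster as CEACAM1. The other relatives were mostly unmeasured too. Of the 17 further CEACAM and PSG genes on the array, the PSG genes being the related pregnancy-specific glycoproteins, 4 had a ratio and 13 did not, among them every PSG gene on the list. CEACAM3, a receptor of granulocytes, stood at -1.61 with siRNA 6 and -1.28 with siRNA 8 (limma, adjusted p = 0.00291). CEACAM7, a GPI-anchored protein of the normal colon surface, stood at -0.87 and -0.75 (adjusted p = 0.00574). CEACAM20 was lower as well, at -0.63 and -0.58 (adjusted p = 0.0108), whereas CEACAM19 stood at 0.20 and 0.24 and did not pass (adjusted p = 0.122). Thus 3 of 4 measured relatives were lower and 0 were higher, where 28.6% of all genes were lower and 12.1% higher. Each of the 3 that fell rested on 1 feature, and these genes are close paralogs whose probes may share targets, which was not tested.

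The windows before the starts of CEACAM1, CEACAM5 and CEACAM6 are shown together because the proteins are paralogs and their ratios were measured unequally. Capitals mark the same CDX2 core letters as above.
CEACAM1, chr19:42528482-42528731, minus strand: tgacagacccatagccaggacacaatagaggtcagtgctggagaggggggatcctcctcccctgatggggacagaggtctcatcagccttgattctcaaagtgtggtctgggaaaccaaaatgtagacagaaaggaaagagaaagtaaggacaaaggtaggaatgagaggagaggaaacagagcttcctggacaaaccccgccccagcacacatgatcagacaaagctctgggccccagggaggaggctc
CEACAM5, chr19:41708376-41708625, plus strand: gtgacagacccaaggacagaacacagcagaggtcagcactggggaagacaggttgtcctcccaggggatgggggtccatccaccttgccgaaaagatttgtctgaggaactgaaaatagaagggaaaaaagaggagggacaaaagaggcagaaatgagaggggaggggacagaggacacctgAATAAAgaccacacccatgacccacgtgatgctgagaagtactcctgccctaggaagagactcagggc
CEACAM6, chr19:41755280-41755529, plus strand: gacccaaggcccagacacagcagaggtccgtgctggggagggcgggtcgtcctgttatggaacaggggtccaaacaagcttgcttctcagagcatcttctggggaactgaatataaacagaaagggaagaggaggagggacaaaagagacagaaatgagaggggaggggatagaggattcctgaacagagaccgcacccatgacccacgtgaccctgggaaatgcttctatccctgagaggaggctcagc
CEACAM5 and CEACAM6 were identical at 73.6% of aligned positions, CEACAM1 and CEACAM6 at 67.0%, and CEACAM1 and CEACAM5 at 63.1%. The same alignment of CEACAM1 with the CD44 window gave 37.4%. Over all pairs of a CEACAM window with that of CD44 or ALCAM, identity ran from 34.3% (CEACAM5 with CD44) to 47.8% (CEACAM6 with ALCAM). A CDX2 core match was present in the CEACAM5 window, from 68 to 63 bases before the start, and in neither of the other CEACAM windows. In all, 6 of the 14 windows of the 8 genes held a match, where 22.5% of all windows did. They were those of TSPAN8, CD44 and CEACAM5 and 2 of the 4 windows of PROM1. The TSPAN8 windows overlap and share a match, so the count is not of separate sites. The TCF/LEF core, CTTTGAA or CTTTGAT on either strand, was found in 1 PROM1 window and in 5.94% of all windows.

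CD44 stayed near control. Over its 10 features for accession NM_000610 the log2 ratio ran from -0.10 to 0.00 with siRNA 6, with a median of -0.04, and from -0.34 to -0.22 with siRNA 8, with a median of -0.29. Every feature was lower with siRNA 8 than with siRNA 6, and the ranges of the arrays did not overlap. The difference was 0.25 ± 0.0389 (SD over 10 features), which is a property of these arrays and has no replicate for either siRNA. Repeat features agreed closely on each array, with an SD of 0.0298 with siRNA 6 and 0.0451 with siRNA 8, against medians of 0.0739 and 0.0791 over the 172 accessions with 10 or more features.

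The mean of CD44 over arrays was -0.16 ± 0.178 (SD, n = 2; limma, adjusted p = 0.290), which is near the median of all genes. With each array centred on its median, CD44 stood at 0.10 with siRNA 6 and -0.17 with siRNA 8, so its sign then differed between siRNAs. The other CD44 features behaved differently. The feature for U94902 gave 2.93 with siRNA 6 and exactly 0 with siRNA 8, and the feature for U94903 was exactly 0 on both. CD44 is spliced into many forms, and which of them these features detect was not tested. The window before the CD44 start is shown for its match.
CD44, chr11:35138921-35139170, plus strand: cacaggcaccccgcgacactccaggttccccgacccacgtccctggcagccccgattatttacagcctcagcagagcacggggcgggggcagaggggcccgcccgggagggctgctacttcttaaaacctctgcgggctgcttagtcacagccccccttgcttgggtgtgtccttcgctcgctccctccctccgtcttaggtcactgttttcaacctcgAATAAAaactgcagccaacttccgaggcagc
The match lies from 31 to 26 bases before the start.

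ALCAM was the gene in which the siRNAs went apart. Its first feature gave a log2 ratio of 0.65 with siRNA 6 and -0.29 with siRNA 8, and its second gave 0.19 and -1.15. Both features were above 0 with siRNA 6 and below 0 with siRNA 8. The gene mean was 0.42 with siRNA 6, 134% of control, and -0.72 with siRNA 8, 60.6% of control. The mean over arrays was -0.15 ± 0.808 (SD, n = 2; limma, adjusted p = 0.718).

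The difference between siRNAs for ALCAM, 1.14 on the log2 scale, was larger in size than that of 98.6% of genes, and 14.8% of genes had opposite signs on the arrays. The features of ALCAM share accession NM_001627 and were 0.46 apart with siRNA 6 and 0.85 apart with siRNA 8. Over 3087 accessions with 2 features the median gap was 0.32 and 0.34. The gap in ALCAM was larger than in 58.9% of these accessions with siRNA 6 and 73.3% with siRNA 8. With 1 array per siRNA the difference has no replicate and was not tested.

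**Figure D2:**
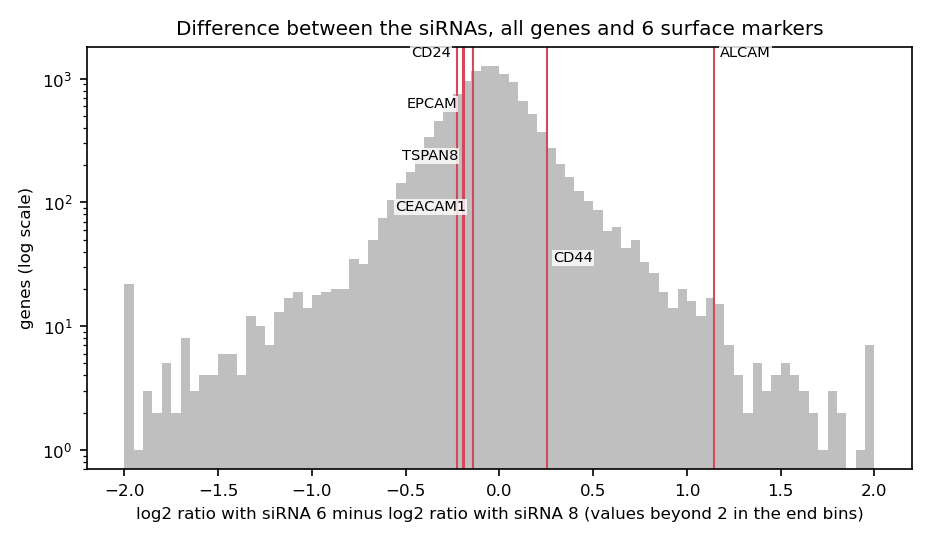
Distribution over all genes of the log2 ratio with siRNA 6 minus that with siRNA 8 (horizontal axis; number of genes on a log vertical axis), with the 6 measured surface markers as red lines. CD24, EPCAM, TSPAN8 and CEACAM1 lie between -0.23 and -0.14, CD44 at 0.25 and ALCAM at 1.14.

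In order of mean ratio the 6 measured genes ran CD24, TSPAN8, EPCAM, CEACAM1, CD44 and ALCAM. The neighbours from CD24 to CD44 had arrays that did not overlap, whereas CD44 and ALCAM overlapped. At least 1.5-fold lower on both arrays were 4 of the 6, the 3 picked on their falls and CEACAM1, and 0 were at least 1.5-fold higher. Of all genes 18.4% were lower and 7.8% higher by this rule. Since the choice of genes used these ratios, nothing is read from that count.

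**Figure D3:**
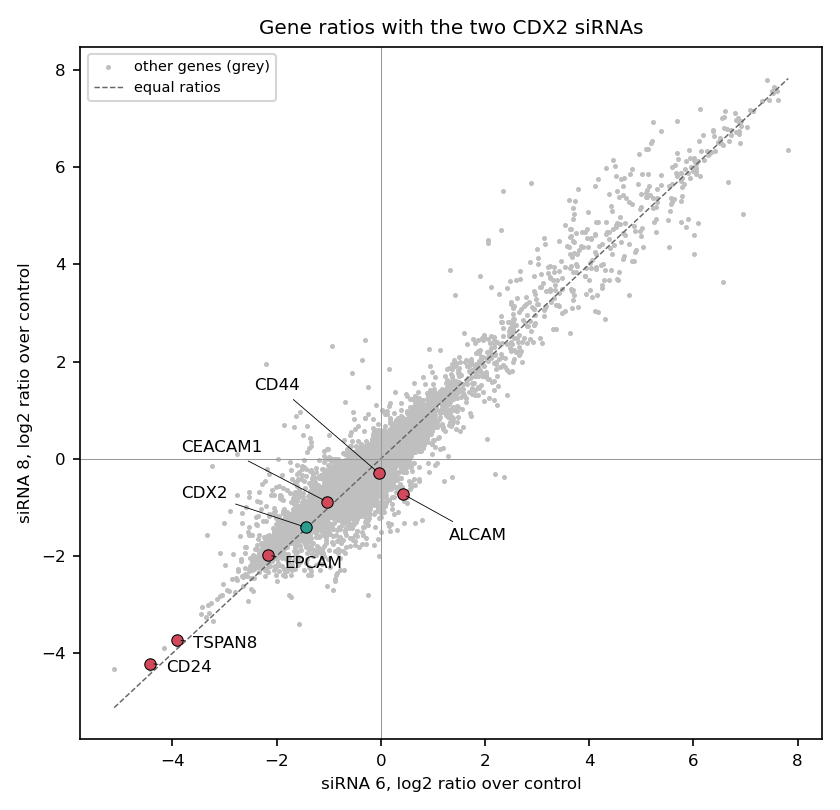
Log2 ratio over control with siRNA 6 (horizontal axis) and siRNA 8 (vertical axis) for all measured genes in grey, the 6 measured surface markers in red and CDX2 in green; the dashed line marks equal ratios. CD24 and TSPAN8 lie at the lower end of all genes, CD44 lies near 0 on both axes, and ALCAM lies off the line.

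The genes with ratios nearest to those of each marker, by Euclidean distance over the 2 arrays, were found among all measured genes. Nearest to CD24 were OGN, a small proteoglycan of the matrix (distance 0.11), and SKAP1, an adaptor of T cells (0.42). HOXD8 was nearest to TSPAN8 (0.11), followed by SKAP1 (0.29). EPCAM was nearest to BFSP1, a lens filament protein (0.016), and ZNF45 (0.022), and CEACAM1 to HIC2 (0.0027) and MOSPD3 (0.015). CD44 was nearest to KRABD5 (0.010) and DDX3X (0.013), and ALCAM to ADGRA2 (0.036) and THEM4 (0.11). With 2 arrays, nearness says only that the ratios were close.

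Tetraspanins other than TSPAN8 were called in both directions. Of 32 further members, all on the array, 21 had a ratio, and 5 rose, 9 fell and 7 did not pass (limma, adjusted p under 0.05). That is 66.7% called, against 40.7% of all genes (12.1% higher and 28.6% lower). TSPAN32, a tetraspanin of blood cells, stood at 5.01 with siRNA 6 and 4.75 with siRNA 8, on 1 of its 2 features. TSPAN15, a partner of the protease ADAM10, stood at 0.98 on both arrays (adjusted p = 0.00328). TSPAN17, another partner of ADAM10, fell to -1.98 and -1.65 (adjusted p = 0.00191), and CD82, known as a suppressor of metastasis, fell to -1.59 and -0.96 (adjusted p = 0.0103). The median over the 21 was -0.26, against -0.13 for all genes. The lowest mean among them was that of TSPAN17, at -1.81, against -3.82 for TSPAN8. TSPAN8 was picked partly on its fall, so nothing is read from this contrast. CD9, a tetraspanin that associates with EPCAM, had no ratio.

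Of 14 measured partners of EPCAM and enzymes that cut it, 0 rose, 3 fell and 11 did not pass, with a median of -0.21. The share called was 21.4%, against 40.7% of all genes. APH1B, a subunit of gamma-secretase, fell to -2.07 with siRNA 6 and -1.12 with siRNA 8 (limma, adjusted p = 0.0143). ST14, the membrane protease matriptase, fell to -0.51 and -0.56 (adjusted p = 0.0147), and LEF1 to -0.30 and -0.42 (adjusted p = 0.0440). ADAM17, which makes the first cut, stood at 0.09 and -0.14. CLDN7, the claudin that binds EPCAM, had no ratio.

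Around CD44, 1 of 18 measured genes of hyaluronan and CD44 biology rose, 7 fell and 10 did not pass, with a median of -0.24. The 44.4% called was near the 40.7% of all genes. The hyaluronan synthases HAS3 and HAS2 were lower. HAS3 stood at -2.66 with siRNA 6 and -2.41 with siRNA 8 (limma, adjusted p = 0.00102), on 1 of 2 features, and HAS2 at -1.35 and -1.24 (adjusted p = 0.00211). ESRP2, which promotes epithelial splicing of CD44, stood at -2.01 and -2.38 (adjusted p = 0.00155), while its relative ESRP1 stood at -0.11 and -0.84 (adjusted p = 0.143). MMP7, a matrix protease, was the member that rose, to 5.77 and 5.88, on 1 feature. NF2, which encodes merlin, fell on average to -0.66, although its 5 features ran from -1.65 to 0.15.

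Relatives of ALCAM in the immunoglobulin family were examined next. Of 15 measured adhesion molecules 3 rose, 4 fell and 8 did not pass, with a median of -0.17, and 16 on the array, L1CAM and NCAM1 among them, had no ratio. The 46.7% called was near the 40.7% of all genes. ICAM5 fell to -1.65 with siRNA 6 and -1.62 with siRNA 8 (limma, adjusted p = 0.00135), on 1 of 2 features. NECTIN1 fell to -1.50 and -1.26 (adjusted p = 0.00241), with features at -2.27 and -0.50. CADM3 fell to -1.27 and -0.88 (adjusted p = 0.00721), and CD58, a ligand of T cells, rose to 0.63 and 0.49 (adjusted p = 0.0156). PVR, the poliovirus receptor, had a mean of 0.52, but its 3 features ran from -0.82 to 2.55.

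Other surface antigens and stem cell markers of colon tumours were called in both directions. Of 26 measured, 4 rose, 10 fell and 12 did not pass, with a median of -0.27, and 12 had no ratio, among them LGR5, GPA33 and EGFR. The share called was 53.8%, where 12.1% of all genes were called higher and 28.6% lower. CDH17, the liver-intestine cadherin, fell to -2.47 with siRNA 6 and -2.28 with siRNA 8 (limma, adjusted p = 0.000996). ITGA2, a collagen receptor subunit, fell to -2.28 and -1.97 over 3 features (adjusted p = 0.00143), and EPHB3, an ephrin receptor of crypt cells, to -2.17 and -1.93 (adjusted p = 0.00128). FOLR1, a folate receptor with a GPI anchor, rose to 2.34 and 1.93 (adjusted p = 0.00176). CD46, a complement regulator, had a mean of 1.84, but its 3 features ran from -0.51 to 5.97, and the 4 features of CD59, another one, ran from -1.70 to 0.12 around a mean of -0.72. CXCR4, a chemokine receptor with 10 features, was singled out after its values were seen. It stood at -1.78 and -1.73 (adjusted p = 0.00123), with features between -1.78 and -1.73. Among the other genes of the list with 10 or more features, KIT and MET passed, with means of 0.58 and -0.47. The features of KIT ran from 0.53 to 0.62, but the 12 features of MET ran from -2.28 to -0.14. ERBB2, ITGB1 and TFRC did not pass, with means of -0.27, 0.27 and 0.21.

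CD24, CEACAM5 and CEACAM6 reach the surface on a GPI anchor. Of 27 measured genes of anchor synthesis, 2 rose, 5 fell and 20 did not pass, with a median of -0.06. The share called was 25.9%, against 40.7% of all genes. PIGL fell to -2.38 with siRNA 6 and -1.35 with siRNA 8 (limma, adjusted p = 0.0114), with features at -1.94 and -1.79. DPM2, PIGW and PIGA, with means of -1.21, -0.90 and -0.67, each had a pair of features that differed, at -2.32 and -0.09 for DPM2, at -1.83 and 0.03 for PIGW, and at -1.23 and -0.12 for PIGA. PIGG, with a mean of -0.35, had 3 features that ran from -0.65 to 0.18.

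Markers of epithelial and other cells were set beside these ratios. Of 7 measured epithelial markers 4 rose, 0 fell and 3 did not pass, with means from -0.03 to 6.55, where 12.1% of all genes were called higher and 28.6% lower. CLDN4, a tight junction claudin, rose to 6.37 with siRNA 6 and 6.74 with siRNA 8, the keratin KRT19 to 1.58 and 1.54 and CLDN3 to 1.16 and 1.01 (limma, adjusted p = 0.000207, 0.00146 and 0.00322). CLDN4 and KRT19 each rested on 1 feature. The keratin KRT8 had a mean of 1.33 from features at -0.02 and 2.68, and CLDN3 a mean of 1.08 from features at 0.11 and 2.05. CDH1 and VIL1 were without a usable feature. Of 4 measured neuroendocrine markers, ENO2 rose (mean 0.83), SCG3 and CHGA fell (-0.57 and -0.42) and CHGB did not pass. CHGB differed in sign between the siRNAs, at -0.37 with siRNA 6 and 2.03 with siRNA 8. SYP, INSM1, SCG2 and DDC were without a usable feature.

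Against the same shares of all genes, 2 of 8 mesenchymal markers rose and 2 fell, with means from -1.96 to 2.99, ACTA2 being the highest and PDGFRB the lowest. ZEB2, with a mean of -0.46, had features at -1.11 and 0.19, and COL1A1 a mean of 0.51. Of 4 blood cell markers 3 fell (CD14, CD3E and PTPRC, means -1.07, -0.92 and -0.96), and of 4 endothelial markers PLVAP fell (-0.97). PTPRC had 10 features that ran from -1.76 to -0.22. LYZ, HBB, VWF and CDH5 were without a usable feature. The part of these markers in the ratios of EPCAM, CD24 and TSPAN8 was not tested. Of 9 housekeeping genes 0 passed in limma, with 1 at an unadjusted p under 0.05 and means from -0.33 to 0.09, and up to 4 were called under other settings.

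**Figure D4:**
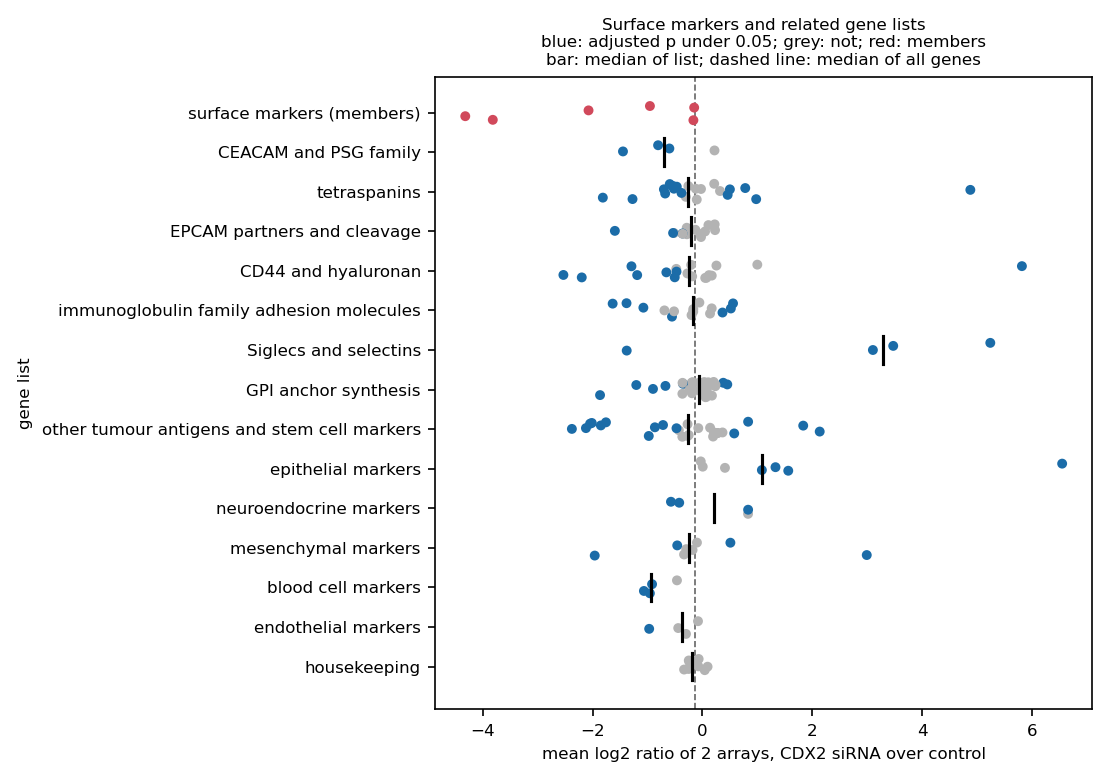
Mean log2 ratio over the 2 arrays (horizontal axis) of the 6 measured surface markers in red and of the measured genes of each related list (vertical axis), blue for an adjusted p under 0.05 and grey otherwise, with the list's median as a black bar and the median of all genes as a dashed line. CD24 and TSPAN8, which were picked partly on their falls, lie at -4.32 and -3.82, below every gene of the lists. Of the list genes, CDH17, HAS3 and ESRP2 reach -2.20 or lower.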

How the data were processed

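RNA of COLO320 cells was measured on 2 two-colour arrays. The authors deposited a log ratio for each feature, read here as the log10 of Cy5 over Cy3 because the deposited values came, per the submitters' processing notes, from Agilent Feature Extraction 9.5.3, which writes that base. The base and the background and dye corrections are not given in the sources used here. The values were converted to log2 and used without further normalization, with no depth to give.

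Of 45015 features, 31332 had 1 annotated gene, and each gene was given the mean over those of its features with a value other than 0 on each array. The test was limma 3.58.1 (R 4.3.3), an intercept-only fit on 12842 genes with 1 residual degree of freedom, a prior of 2.87, and Benjamini-Hochberg adjustment. A run on simulated data checked that the code recovered the means and called more of the larger changes. It set no limit on false calls. Promoter windows came from the RefSeq table of GRCh38.p14 and were searched in Python 3.11.15 with pandas 2.3.3 and NumPy 2.4.6. Pairs of windows were aligned over their whole length with Biopython, with a penalty for gaps and none for mismatches. Identity is the share of alignment columns, gaps included, that hold the same base.

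The genes and lists were chosen with earlier results of these data known. Named genes are the 9 genes, CDX2, the 2 nearest genes of each marker, and up to 4 genes per list. The latter were taken from genes past the threshold, by the smaller absolute ratio of the arrays. Genes past the threshold whose features differed in sign were added. CXCR4, the genes set beside it, and some genes that were unmeasured or did not pass are named outside this rule. Symbols come from the platform annotation, and 31291 features matched a RefSeq gene. Alternatives covered centring, scaling, exact zeros, the feature rule, the variance prior, each array alone and the log base.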

Additional observations from a re-analysis of the deposited data

Results flagged for a closer look

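CD44 and CEACAM1 each had a feature with a ratio on 1 array, which entered no comparison. The CD44 feature for U94902 gave a log2 ratio of 2.93 with siRNA 6 and exactly 0 with siRNA 8, while the 10 features for NM_000610 on the siRNA 6 array lay between -0.10 and 0.00. The CEACAM1 feature for NM_001024912 gave -0.37 with siRNA 6 and exactly 0 with siRNA 8, beside -1.03 for the feature for NM_001712 on the siRNA 6 array.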

How the results depend on the processing

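When features at exactly 0 were kept with that value, the calls in limma fell to 0 genes in all (5218 at an unadjusted p under 0.05), 0 of CD44, ALCAM and CEACAM1, and 0 members of each list. CEACAM1 then had a mean of -0.38 (adjusted p = 0.211) and CDX2 a mean of -1.42 (adjusted p = 0.0676, against 0.00136 to 0.00249 under its other alternatives). Those fits include 5002 genes at 0 on both arrays. Genes at least 1.5-fold lower on both arrays numbered 2366, against 1226 at 2-fold, and 3782 features met the rule when each feature was taken on its own. On a single array 2784 to 3105 genes were at least 1.5-fold lower and 1154 to 1182 higher, and CDX2 ran from -1.44 to -1.41. Of the housekeeping genes 2 were called with accessions averaged first, 4 with each feature on its own and 1 with the arrays scaled to the same spread. Read as log2 as deposited, CDX2 stood at -0.43, CD24 at -1.30, TSPAN8 at -1.15, EPCAM at -0.62 and CEACAM1 at -0.29. Centring moved the share of lower calls from 70.2% to 58.0%. Otherwise no call of CDX2, CD44, ALCAM or CEACAM1 changed, and no count of all genes or of a list moved by over 1.5 times. A count of tested genes could not be fitted on a single array. The cause of these changes was not tested beyond the number of genes each setting holds. Each of the 2 arrays is already a ratio to its control, so the values tested hold that pairing and no further paired analysis was possible. The table holds no signal over background.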

Other observations

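Siglecs and selectins, the families that include receptors of CD24 on other cells, were mostly without a ratio in these cells, with 4 of 14 genes on the array measured. CD22, a Siglec of B cells, stood at 5.10 with siRNA 6 and 5.39 with siRNA 8, on 1 of its 3 features. SIGLEC5 stood at 3.68 and 3.27, on 1 of 2 features, and SIGLEC8 at 3.03 and 3.19. SIGLEC15 stood at -1.59 and -1.17. These 4 passed limma's threshold, 3 higher and 1 lower (adjusted p from 0.000246 to 0.00427), where 12.1% of all genes were called higher and 28.6% lower. Each rested on 1 feature. A gene may have gained a ratio only through the channel in which it was high, so nothing is read from these calls. Without intensities this was not tested. SIGLEC10 and SELP, the known partners of CD24, were without a usable feature.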
